A study of Homo sapiens with 4 samples.

Results

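The genes described here are a set of 59 genes of chromosome 18, taken from both arms and named for reading lower in HK1EBV than in HK1 cells. They were chosen on the difference between these cell lines in the same 4 arrays, from a list that kept genes of either direction. Each gene was read from its brightest probe set. Of the 59, 58 had a probe set of a single gene symbol and all 58 passed the filter on dim probe sets, out of 18323 genes measured and 15194 tested. RNMT was not analysed here. Because the line difference chose the members, it is given as a description with no test. The rule did not use the effect of CAPE or the levels of the members' partner genes on other chromosomes, which were tested. The lists of partners were drawn up with earlier results of these data known. Nor is the CAPE test of members free of their choice, since its error is the gap between the line differences of both treatments.

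RNA came from 2 nasopharyngeal carcinoma cell lines on 4 single-colour arrays, 1 for each group. The groups were HK1EBV with 110 µM CAPE (caffeic acid phenethyl ester), HK1EBV with dimethyl sulfoxide (DMSO) at 0.1%, HK1 with CAPE and HK1 with DMSO, all after 24 h. HK1EBV is read from its name as HK1 carrying Epstein-Barr virus, and the labels say neither more of the virus nor whether it is 1 clone. CAPE is a compound of propolis known to inhibit NF-κB, and DMSO is the solvent that served as its control. With 1 array per group no value had a replicate within its group, and no label says whether separate cultures stood behind the arrays. The p-values below take as error the difference between the lines in their CAPE change, moderated over all genes. A true difference in response to CAPE thus counts as error, and the p-values do not measure the spread between cultures.

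Chromosome 18 is gene-poor, and its long arm is often lost in squamous and gastrointestinal carcinomas. SMAD2, SMAD4 and SMAD7 lie on that arm. Receptors of the TGF-beta family phosphorylate SMAD2, which enters the nucleus together with SMAD4, while SMAD7 is induced by the signal and shuts the receptors off. The other members have little in common besides their chromosome, and include subunits of protein complexes whose remaining subunits are encoded elsewhere in the genome.

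Both lines read as epithelial. Of 9 epithelial and squamous markers measured, 7 or more stood above the median gene on each array, led by KRT5 or KRT14 at up to 10.25. Among the markers of other cells, 0 of 5 leukocyte, 1 of 6 fibroblast and 0 of 5 endothelial genes did so, the 1 being COL1A1. Array medians lay between 2.23 and 2.27 on the deposited log2 scale, and the number of arrays limits the precision of every value. All levels and differences below are on that scale. Probe sets differ in brightness, so apart from this check and a grouping by mean level further on, levels are not compared between genes.

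Of the 58 members, 54 (93.1%) read lower in HK1EBV than in HK1 with both treatments, against 31.7% of all genes tested. The median difference, HK1EBV minus HK1, was -0.45 with CAPE and -0.54 with DMSO. At least 1.5-fold lower were 19 members with CAPE (32.8%, against 4.76% of all genes), 24 with DMSO (41.4%, against 3.96%) and 15 with both (25.9%, against 2.22%). None (0) of the members was at least 1.5-fold higher with both treatments, as 2.06% of all genes were. In RNA from whole cultures, fewer cells that express a gene and less RNA per cell cannot be told apart. These shares restate how the set was chosen, and nothing is read from them. Both HK1EBV arrays lay below both HK1 arrays for 49 members (84.5%, against 20.9% of all genes tested). The mean difference between the lines exceeded its own gap between treatments in 52 members (89.7%, against 44.9% of all genes tested), which the choice of members also favoured.

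**Figure D1:**
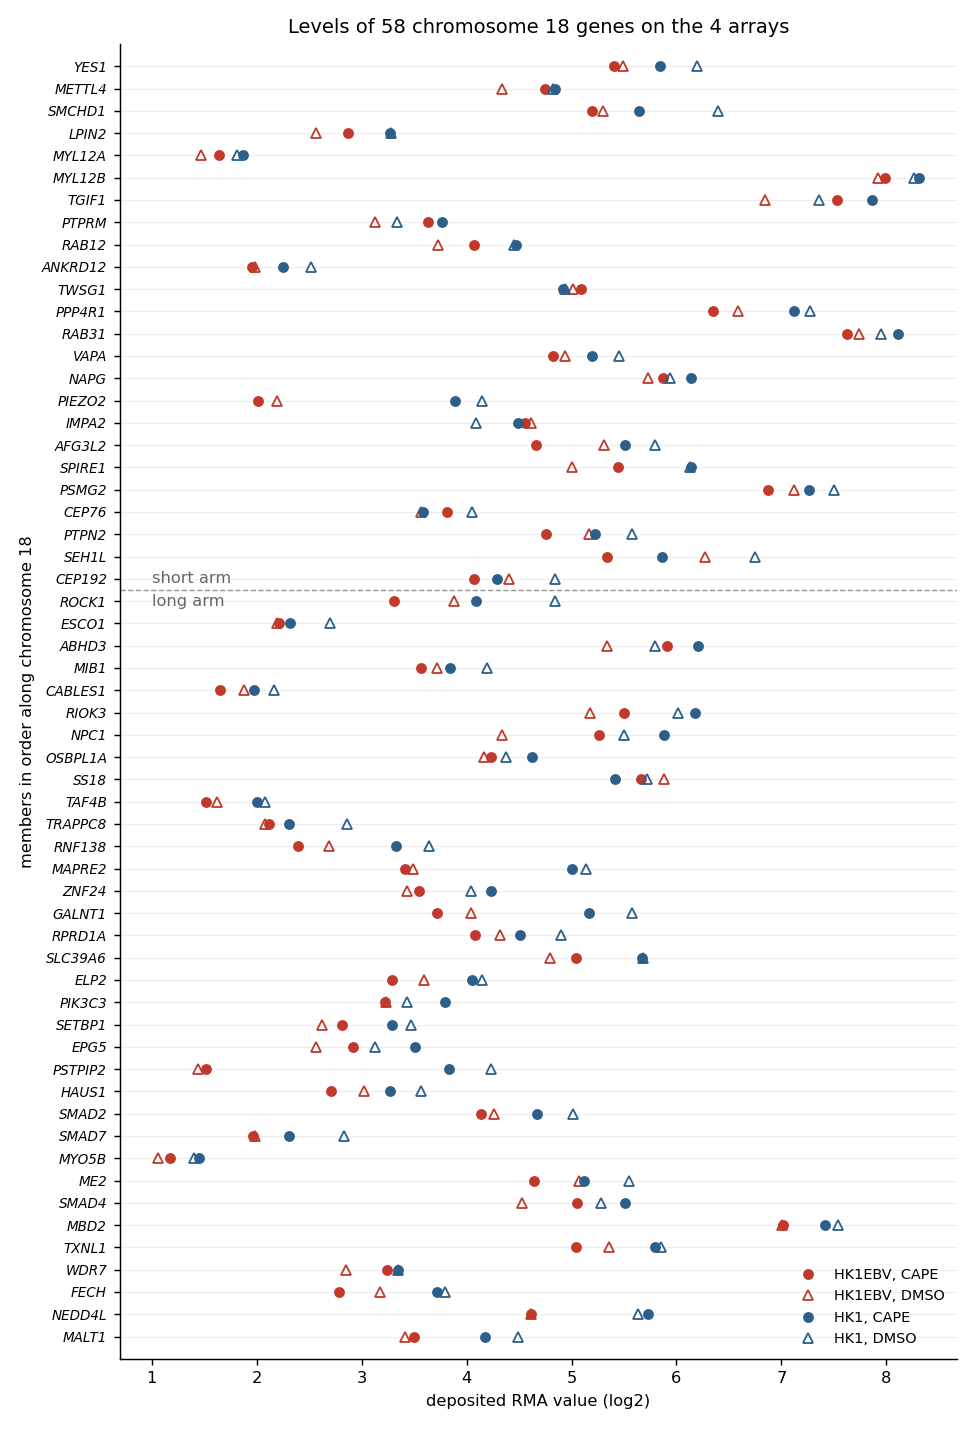
Deposited RMA value (log2, x axis) of each of the 58 members, in order down the chromosome, on the HK1EBV arrays (red) and HK1 arrays (blue), with CAPE as filled circles and DMSO as open triangles. Each point is 1 array; both red points lie left of both blue points in 49 rows, and PSTPIP2, PIEZO2, MAPRE2 and GALNT1 are the widest apart.

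The label of the set holds for most members and not for all. TWSG1, IMPA2 and SS18 read higher in HK1EBV with both treatments, and CEP76 went opposite ways. TWSG1, a secreted protein that binds bone morphogenetic proteins, stood at 5.09 with CAPE and 5.02 with DMSO in HK1EBV, against 4.91 and 4.93 in HK1. SS18, a subunit of the BAF chromatin remodeller, stood at 5.67 and 5.88 in HK1EBV, against 5.41 and 5.72 in HK1. For TWSG1 the HK1EBV arrays lay just above the HK1 arrays, whereas those of SS18 overlapped. IMPA2, an inositol monophosphatase, stood at 4.55 and 4.61 in HK1EBV, against 4.49 and 4.09 in HK1, so its difference was 0.07 with CAPE and 0.53 with DMSO. CEP76, which limits the duplication of centrioles, stood at 3.81 and 3.56 in HK1EBV, against 3.59 and 4.05 in HK1. Its difference was 0.23 with CAPE and -0.49 with DMSO.

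The promoters of PSTPIP2 and PIEZO2, the lowest members of the long and the short arm, are shown beside that of TWSG1, a member of the short arm that was not lower. The series measured RNA only, so they show what kind of start site these genes have. Each is 300 bases from RefSeq, assembly GRCh38.p14, running from 250 bases before the gene start to 50 after it, and capitals mark each CG, the dinucleotide at which human DNA is methylated.
PSTPIP2, chr18:46072211-46072510, minus strand: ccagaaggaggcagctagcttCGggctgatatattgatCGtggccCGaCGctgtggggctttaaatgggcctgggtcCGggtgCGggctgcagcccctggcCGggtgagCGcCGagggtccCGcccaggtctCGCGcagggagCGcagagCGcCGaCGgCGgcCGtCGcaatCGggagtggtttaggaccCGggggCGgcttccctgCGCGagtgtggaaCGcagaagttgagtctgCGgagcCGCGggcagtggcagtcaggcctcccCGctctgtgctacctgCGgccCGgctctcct
PIEZO2, chr18:11149520-11149819, minus strand: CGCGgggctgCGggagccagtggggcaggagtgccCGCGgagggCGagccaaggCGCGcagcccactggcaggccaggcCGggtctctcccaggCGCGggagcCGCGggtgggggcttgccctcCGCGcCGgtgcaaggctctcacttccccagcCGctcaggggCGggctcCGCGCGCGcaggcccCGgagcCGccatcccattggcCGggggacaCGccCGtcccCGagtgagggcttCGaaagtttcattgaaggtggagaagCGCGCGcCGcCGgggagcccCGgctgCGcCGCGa
TWSG1, chr18:9334523-9334822, plus strand: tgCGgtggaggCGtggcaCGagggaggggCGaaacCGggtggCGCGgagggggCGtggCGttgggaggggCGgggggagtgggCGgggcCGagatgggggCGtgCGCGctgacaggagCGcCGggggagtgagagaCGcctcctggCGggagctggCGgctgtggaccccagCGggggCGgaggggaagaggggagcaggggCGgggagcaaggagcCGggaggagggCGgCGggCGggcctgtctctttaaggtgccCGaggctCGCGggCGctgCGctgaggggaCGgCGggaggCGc

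The windows hold 31, 38 and 35 CG in PSTPIP2, PIEZO2 and TWSG1. The motif reads the same on both strands. Over all 34796 promoters of the table the median was 14, and 96% held at least 1. A count at least as high was found in 20.7% of promoters for PSTPIP2, 9.92% for PIEZO2 and 14.1% for TWSG1. The table matched 53 of the members, with 86 promoters and a median of 26. All 3 windows thus held more CG than the median promoter, that of TWSG1 included.

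The members are given below by role, in groups assigned after the values were seen. Counts per group restate the choice of members, and nothing is read from them. Lower with both treatments were 93.1% of all members and 31.7% of all genes tested. At least 1.5-fold lower with both were 25.9% and 2.22%. Of the 5 members of TGF-beta and BMP signalling, 4 read lower in HK1EBV with both treatments and TWSG1 did not. SMAD2, the receptor-regulated transducer, stood at 4.13 with CAPE and 4.26 with DMSO in HK1EBV, against 4.67 and 5.02 in HK1. SMAD4, the shared partner of the receptor-regulated SMADs, stood at 5.05 and 4.53 in HK1EBV, against 5.50 and 5.28 in HK1. For SMAD2 and SMAD4 alike, both HK1EBV arrays lay below both HK1 arrays. The inhibitor SMAD7 stood at 1.96 and 1.98 in HK1EBV, against 2.31 and 2.83 in HK1, with its HK1EBV arrays under the array medians. Differences with CAPE were -0.54, -0.45 and -0.35 for SMAD2, SMAD4 and SMAD7, and with DMSO they were -0.76, -0.75 and -0.85. All 3 were thus at least 1.5-fold lower with DMSO, and none (0) of the 5 members was so with CAPE.

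TGIF1, a corepressor that binds SMAD proteins, stood at 7.53 with CAPE and 6.84 with DMSO in HK1EBV, against 7.86 and 7.36 in HK1. Its differences were -0.33 and -0.51, and the arrays overlapped because its level was higher with CAPE in both lines. TGIF1 was the 1 member with more than 1 probe set. Of its 5 probe sets, 4 differed by -0.31 to -0.33 with CAPE and by -0.44 to -0.53 with DMSO, and the dimmest by -0.11 and 0.11.

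Among 10 members of the cytoskeleton and the centrosome, 4 were at least 1.5-fold lower with both treatments. PSTPIP2, an F-BAR protein that binds actin filaments and membranes, stood at 1.51 with CAPE and 1.44 with DMSO in HK1EBV, against 3.83 and 4.23 in HK1. It was the lowest member with differences of -2.32 and -2.79, or 5.87-fold on average, and read under the array medians in HK1EBV and well above them in HK1. MAPRE2, which tracks the growing ends of microtubules, stood at 3.41 and 3.49 in HK1EBV, against 5.00 and 5.14 in HK1, or 3.08-fold lower on average. SPIRE1, a nucleator of actin filaments, stood at 5.44 and 5.00 in HK1EBV, against 6.14 and 6.12 in HK1. ROCK1, a kinase that raises the phosphorylation of myosin light chains, stood at 3.31 and 3.88 in HK1EBV, against 4.09 and 4.84 in HK1. In each of these 4 genes both HK1EBV arrays lay below both HK1 arrays.

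The myosin light chain genes MYL12A and MYL12B, neighbours of near-identical sequence, differed less. MYL12B stood at 7.99 with CAPE and 7.92 with DMSO in HK1EBV, against 8.32 and 8.27 in HK1. MYL12A stood at 1.64 and 1.47 in HK1EBV, against 1.87 and 1.81 in HK1. The differences were -0.33 and -0.34 for MYL12B and -0.23 and -0.34 for MYL12A, and a probe set assigned to both genes gave -0.16 and -0.20. The share of each gene is therefore uncertain. MYO5B, the motor of recycling endosomes, was dim at 1.17 and 1.06 in HK1EBV, against 1.45 and 1.40 in HK1. HAUS1, a subunit of the augmin complex of the spindle, differed by -0.56 with CAPE and -0.55 with DMSO, and CEP192, a scaffold of the centrosome, by -0.22 and -0.43.

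All 12 members of membrane traffic, autophagy and lipid handling read lower in HK1EBV with both treatments, as 93.1% of all members did. Most of them were lower by less than 1.5-fold. Their medians were -0.39 with CAPE and -0.51 with DMSO, and NPC1 was the 1 member at least 1.5-fold lower with both. NPC1, which exports cholesterol from late endosomes, stood at 5.26 with CAPE and 4.34 with DMSO in HK1EBV, against 5.88 and 5.50 in HK1. Its difference was -0.62 with CAPE and -1.16 with DMSO. TRAPPC8, a subunit of the TRAPP III tethering complex, stood at 2.11 and 2.08 in HK1EBV, against 2.31 and 2.86 in HK1. Its difference was -0.20 with CAPE and -0.78 with DMSO, so that TRAPPC8 passed the 1.5-fold mark with DMSO only.

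The remaining 10 of these 12 genes covered vesicle, contact site, autophagy and lipid functions. ABHD3, a phospholipase, stood at 5.91 with CAPE and 5.34 with DMSO in HK1EBV, against 6.21 and 5.79 in HK1, and its arrays overlapped between the lines. The GTPase genes RAB12 and RAB31 differed by -0.40 and -0.49 with CAPE and by -0.73 and -0.21 with DMSO. EPG5, needed for the fusion of autophagosomes with lysosomes, differed by -0.59 and -0.56. PIK3C3, the kinase that makes the lipid signal for autophagy, differed by -0.57 and -0.21, and LPIN2, a phosphatidate phosphatase, by -0.40 and -0.71. VAPA, an anchor of membrane contacts at the endoplasmic reticulum, differed by -0.37 and -0.52, and OSBPL1A, a lipid-binding protein of late endosomes, by -0.39 and -0.21. NAPG, which acts in membrane fusion, differed by -0.26 and -0.20, and WDR7, which associates with the vesicular proton pump, by -0.10 and -0.50.

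Signalling, channel and transport genes held 5 of 9 members at least 1.5-fold lower with both treatments. PIEZO2, a channel opened by mechanical force, stood at 2.01 with CAPE and 2.20 with DMSO in HK1EBV, against 3.89 and 4.15 in HK1. With differences of -1.88 and -1.95, or 3.77-fold on average, it was the lowest member of the short arm, and both HK1EBV arrays read under the array medians. MALT1, the paracaspase that relays antigen receptor and CARD signals to NF-κB, stood at 3.50 and 3.41 in HK1EBV, against 4.18 and 4.49 in HK1. The zinc importer SLC39A6 differed by -0.63 and -0.89, the kinase RIOK3 by -0.68 and -0.85, and PPP4R1, a regulatory subunit of protein phosphatase 4, by -0.77 and -0.68.

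The other 4 signalling members differed less or with DMSO alone. PTPN2, a tyrosine phosphatase that dampens JAK-STAT signals, stood at 4.75 with CAPE and 5.17 with DMSO in HK1EBV, against 5.22 and 5.57 in HK1. PTPRM, a receptor phosphatase of cell contacts, stood at 3.63 and 3.12 in HK1EBV, against 3.77 and 3.34 in HK1, with differences of -0.13 and -0.21 and overlapping arrays. YES1, a kinase of the SRC family, differed by -0.43 and -0.70, and CABLES1, a partner of cyclin-dependent kinases, by -0.33 and -0.28.

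Of 5 members of protein modification and turnover, 3 were at least 1.5-fold lower with both treatments. GALNT1, which starts mucin-type O-glycosylation, stood at 3.72 with CAPE and 4.04 with DMSO in HK1EBV, against 5.16 and 5.58 in HK1, or 2.82-fold lower on average. NEDD4L, a ubiquitin ligase that removes epithelial sodium channels from the surface, stood at 4.61 and 4.62 in HK1EBV, against 5.73 and 5.64 in HK1. The ubiquitin ligase RNF138, which acts in DNA break repair, stood at 2.40 and 2.69 in HK1EBV, against 3.32 and 3.64 in HK1. In these 3 genes every HK1EBV array lay below every HK1 array. MIB1, the ligase that drives endocytosis of Notch ligands, differed by -0.28 and -0.48, and PSMG2, a proteasome assembly chaperone, by -0.40 and -0.38. GALNT1 and NEDD4L, with PSTPIP2, PIEZO2 and MAPRE2, made up the 5 members at least 2-fold lower with both treatments (8.62%, against 0.546% of all genes).

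In metabolism and mitochondria, FECH, which puts iron into heme, differed by -0.94 with CAPE and -0.61 with DMSO. AFG3L2, a protease of the inner mitochondrial membrane, differed by -0.86 and -0.48, and TXNL1, a thioredoxin-like protein of the proteasome, by -0.76 and -0.50. ME2, the mitochondrial malic enzyme, stood at 4.64 with CAPE and 5.07 with DMSO in HK1EBV, against 5.12 and 5.55 in HK1, a difference of -0.48 with either treatment. FECH was the 1 gene of these to be at least 1.5-fold lower with both treatments.

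Of 12 measured members of chromatin, transcription and RNA, 11 read lower in HK1EBV with both treatments. SMCHD1, a chromatin protein of the inactive X chromosome, stood at 5.19 with CAPE and 5.30 with DMSO in HK1EBV, against 5.64 and 6.40 in HK1. Its difference was -0.45 with CAPE and -1.10 with DMSO. SEH1L, of the Y complex of the nuclear pore, stood at 5.34 and 6.27 in HK1EBV, against 5.86 and 6.75 in HK1, so its arrays overlapped while the difference was -0.53 and -0.48. ELP2, a scaffold of the Elongator complex that modifies transfer RNA, differed by -0.76 and -0.56, and ZNF24, a zinc finger factor, by -0.69 and -0.61. The DNA-binding protein gene SETBP1 differed by -0.47 and -0.85, and MBD2, which binds methylated DNA, by -0.40 and -0.53. TAF4B, a TFIID subunit, differed by -0.49 and -0.45, RPRD1A, which binds the tail of RNA polymerase II, by -0.42 and -0.58, and ANKRD12 by -0.30 and -0.54. The smallest differences with CAPE in this group were those of ESCO1, a cohesin acetyltransferase, and METTL4, an adenine methyltransferase, at -0.11 and -0.09, against -0.51 and -0.48 with DMSO.

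The size of the difference was not the same with both treatments. In 38 of 58 members (65.5%) the difference with DMSO was lower than that with CAPE, against 46.9% of the genes tested. The members were chosen on these differences. The widest gaps were those of CEP76, SMCHD1, TRAPPC8 and NPC1. Across the members, which are not independent replicates and share 4 arrays, the differences with CAPE and with DMSO correlated at Pearson's r = 0.854 and Spearman's correlation of 0.648. Without PSTPIP2, PIEZO2, MAPRE2 and GALNT1 these were 0.621 and 0.564, and over all genes tested 0.637 and 0.518.

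The members were set beside the rest of their chromosome, which was itself picked with these line differences known, so the values are a description. Of the other chromosome 18 genes, 205 were measured and 147 tested, with medians of -0.32 with CAPE and -0.30 with DMSO. Among the 147, 105 (71.4%) read lower in HK1EBV with both treatments, 21 (14.3%) by at least 1.5-fold, and 0 were at least 1.5-fold higher with either treatment. FHOD3, a formin of actin, at -1.14 and -1.19, FAM210A, a mitochondrial protein, at -1.48 and -0.83, and DSG3, a desmosomal cadherin, at -1.14 and -0.99 were the lowest of them. The highest were AQP4-AS1 at 0.21 and 0.32, ZNF516-DT at 0.18 and 0.18, and SCARNA17 at -0.0022 and 0.33. The 58 genes outside the list that were too dim to be tested had medians of -0.03 and 0.03.

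Lower medians were found on both arms, though the members were chosen on this difference. The 24 members of the short arm had medians of -0.38 with CAPE and -0.48 with DMSO. The 34 of the long arm had -0.55 and -0.59, and 3 and 12 were at least 1.5-fold lower with both. Outside the list the shift was smaller, with medians of -0.19 and -0.13 over 26 tested genes of the short arm. The 121 of the long arm had -0.34 and -0.32, and 2 and 19 were at least 1.5-fold lower with both. Beyond MALT1, the last member on the long arm, 51 tested genes had medians of -0.32 and -0.30. In 196 of 197 windows of 9 neighbouring tested genes, with the chosen members counted in, the median was below 0 with both treatments. Each window is moved on by a single gene, so neighbouring windows share most of their genes and are not independent. The lowest window ran from INO80C to FHOD3, with medians of -0.65 and -0.89 and 4 members in it, and the 1 not below 0 with both ran from ZNF521 to DSC2, with -0.12 and 0.06 and 2 members.

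**Figure D2:**
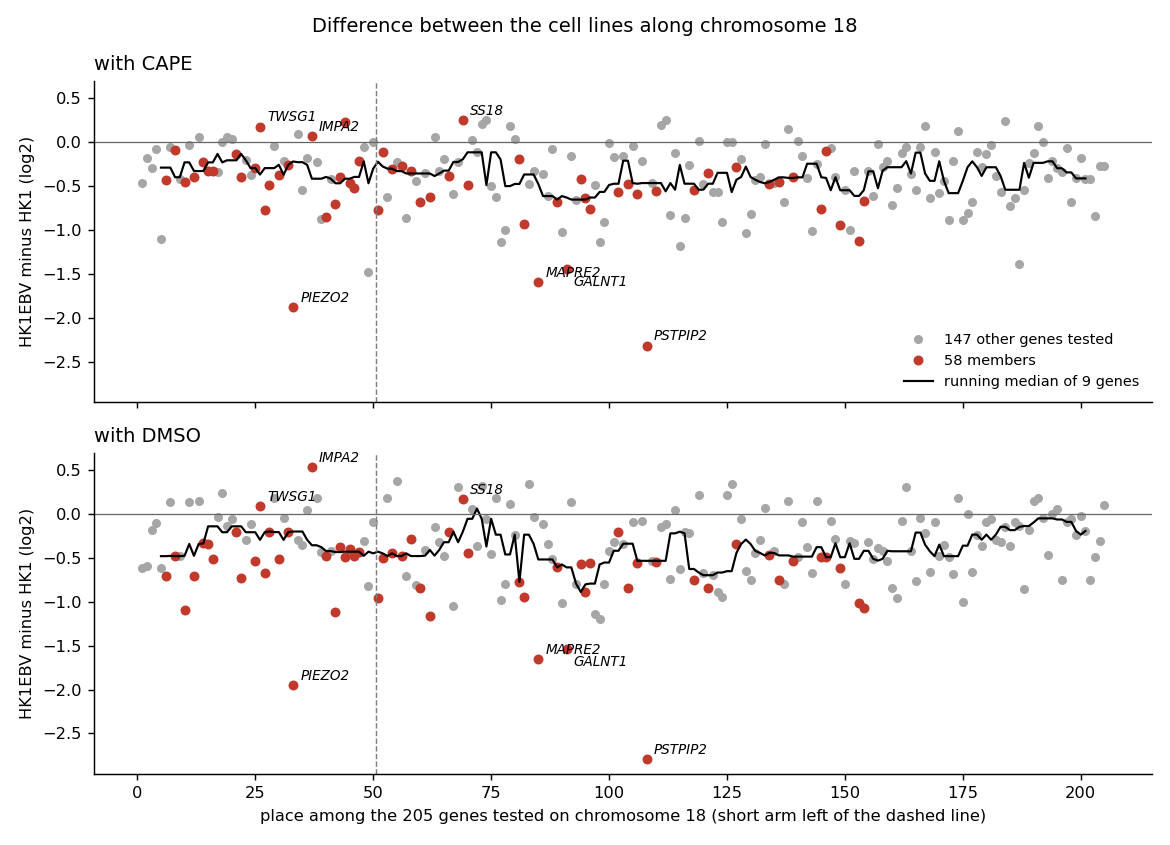
HK1EBV minus HK1 (log2, y axis) with CAPE (top) and DMSO (bottom) for the 205 tested genes of chromosome 18 in their order (x axis), with members in red, other genes in grey, the running median of 9 genes as a line and a dashed line between the arms. Each point is 1 gene from 1 array per line; the running median stays below 0 along nearly all of the chromosome, with medians of -0.37 and -0.38 over all points.

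Over all 205 tested genes of chromosome 18 the medians were -0.37 with CAPE and -0.38 with DMSO, the lowest of 23 chromosomes with either treatment. The chromosome was picked with this difference known, and 58 of these genes are the chosen members, so the rank restates the choice. Chromosome 13 came next with -0.29 and -0.37 over 253 genes, and then chromosome 8 with -0.12 and -0.10. By the mean difference over both treatments, chromosome 13 had the lower median, at -0.42 against -0.37 for chromosome 18. The share of genes at least 1.5-fold lower with both treatments was 25.3% on chromosome 13 and 17.6% on chromosome 18. The shares were also taken by mean level, without a test. Among genes outside the list, by rising quartile of mean level, 0, 15.7, 25.9 and 27.3% were at least 1.5-fold lower with both treatments, and among members 0, 26.7, 26.3 and 30% of 4, 15, 19 and 20 genes. On the chromosomes other than 13 and 18 the same shares lay between 0.19 and 2.47%.

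**Figure D3:**
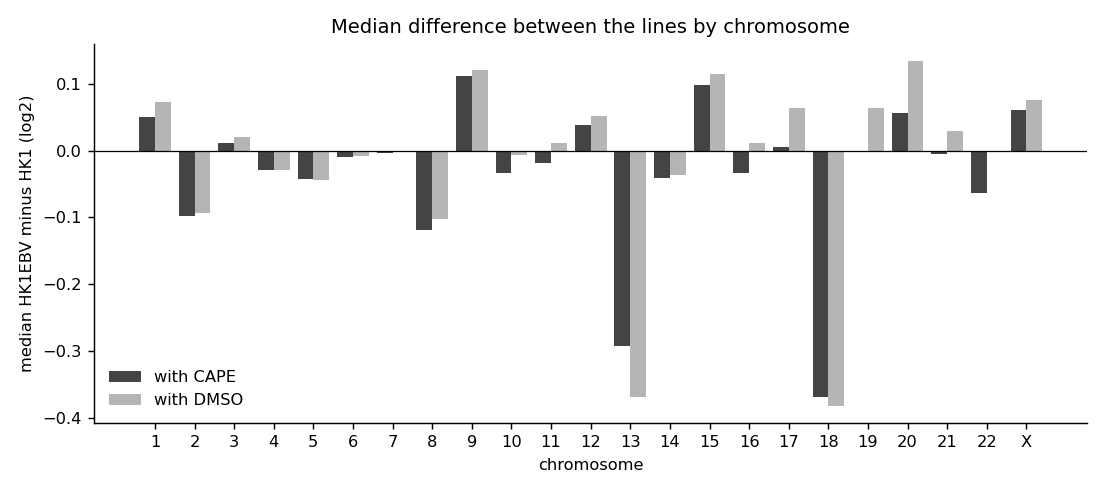
Median of HK1EBV minus HK1 (log2, y axis) over the tested genes of each chromosome (x axis), with CAPE as dark bars and DMSO as light bars, from 1 array per group. Chromosome 18, picked with this difference known, is lowest at -0.37 and -0.38, followed by chromosome 13 at -0.29 and -0.37, and no other bar goes below -0.12.

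Many members encode 1 subunit of a complex or 1 step of a pathway, and the other genes of these were followed in 17 lists. Of 188 partner genes listed, 179 were measured and tested, 0 of them on chromosome 18 and 5 on chromosome 13. Their median difference between the lines was 0.07 with CAPE and 0.0025 with DMSO, and 62 (34.6%) read lower with both treatments. By limma with Benjamini-Hochberg adjustment over all genes, 6 partners were lower (3.35%, against 1.58% of all genes) and 2 higher (1.12%, against 1.32%) at an adjusted p under 0.05. The lean towards lower calls was not kept when 57 genes of zero residual, those fitted without error, were left out. Then 15 partners were lower (8.38%, against 5.34% of all genes) and 16 higher (8.94%, against 6.26%).

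The TGF-beta and BMP list, of ligands, receptors, SMADs and regulators, had 2 of 29 genes lower and 0 higher. Without the genes of zero residual 5 were lower, with ACVR1, ACVR2A and BMPR2 besides the genes below, and 1 was higher, TGFBR2. TGFB2, a ligand that acts through SMAD2 and SMAD4, fell to 2.99 with CAPE and 4.38 with DMSO in HK1EBV, against 4.28 and 5.39 in HK1 (difference -1.15 ± 0.13, moderated SE of limma, n = 2 treatments, adjusted p = 0.0363, range over alternatives 0.000573 to 0.522). FST, an inhibitor of activins, fell to 3.68 and 4.36 in HK1EBV, against 5.03 and 5.84 in HK1 (-1.42 ± 0.11, limma adjusted p = 0.0235, range 0.000105 to 0.291). The medians of this list were -0.01 with CAPE and 0.0077 with DMSO. ACVR2A, an activin receptor, differed by -0.83 and -0.49 and did not pass (limma adjusted p = 0.0763, range 0.0120 to 0.255).

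Of 17 known target genes of TGF-beta, 3 fell and 0 rose, against 4 lower and 4 higher without the genes of zero residual, where LTBP2 was also lower and ID1, ID2, FN1 and CDKN1A were higher. THBS1, a matrix protein that activates latent TGF-beta, read 6.13 with CAPE and 7.75 with DMSO in HK1EBV, against 7.75 and 8.88 in HK1 (-1.37 ± 0.16, limma adjusted p = 0.0364, range 0.000302 to 0.490). SNAI2, a transcription factor of epithelial plasticity, read 8.78 and 8.60 in HK1EBV, against 9.68 and 9.51 in HK1 (-0.91 ± 0.11, limma adjusted p = 0.0401, range 0.00153 to 0.173). COL4A1, a basement membrane collagen gene on chromosome 13, had a difference of -0.74 ± 0.11 (limma adjusted p = 0.0495, range 0.00481 to 0.193). FN1, the fibronectin gene, was higher by 0.67 with CAPE and 1.03 with DMSO and did not pass (limma adjusted p = 0.0522, range 0.00338 to 0.304). The list medians were -0.01 with CAPE and -0.25 with DMSO.

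In the list of myosin II and its regulators, RHOB fell by 0.79 and MYH10, a nonmuscle myosin heavy chain, rose by 0.78 on average (limma adjusted p = 0.0482 and 0.0460, ranges 0.00368 to 0.230 and 0.00344 to 0.218). HDAC8, the deacetylase of cohesin, rose by 0.79 (limma adjusted p = 0.0459, range 0.00322 to 0.171). With no filter on dim probe sets, or with treatment left out of the model, these 8 genes did not pass, and COL4A1 also with a trended variance prior.

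Partners were also set beside the member they work with. In 12 lists with 1 measured member, 89 of 109 partners (81.7%) had a higher mean difference than the member, about the share that all genes tested gave against the same members (84.3%), so the count says nothing of partners in particular. All partners lay above the member for TRAPPC8, ELP2, PIK3C3, SEH1L, FECH, MALT1 and TAF4B. Of all genes tested, 92.2% (PIK3C3) to 98.7% (MALT1) also lay above these members, so nothing is read from it. TRAPPC8 differed by -0.49 on average, against a median of 0.24 over 13 TRAPP subunits and a lowest of -0.33 for TRAPPC13. ELP2 differed by -0.66, against 0.27 over 4 Elongator subunits, of which ELP5 was the highest at 0.79. FECH differed by -0.78, against 0.29 over 6 other enzymes of heme synthesis. The median over 8 nuclear pore partners of SEH1L was 0.13, beside -0.50 for SEH1L.

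Some partners read as low as the member. TUBGCP3, POMP and PDS5B, all on chromosome 13, lay below HAUS1, PSMG2 and ESCO1 at -0.69, -0.45 and -0.46. The cohesin genes SMC3 and NIPBL lay just below ESCO1, at -0.32 and -0.33 against -0.31. The subunits of protein phosphatase 4 had a median of -0.49, with PPP4R4 at -0.99, beside -0.72 for PPP4R1. SS18 was the reverse, above 14 of 15 BAF partners. Above SS18 lay 6.67% of these partners, against 20.9% of all genes tested.

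**Figure D4:**
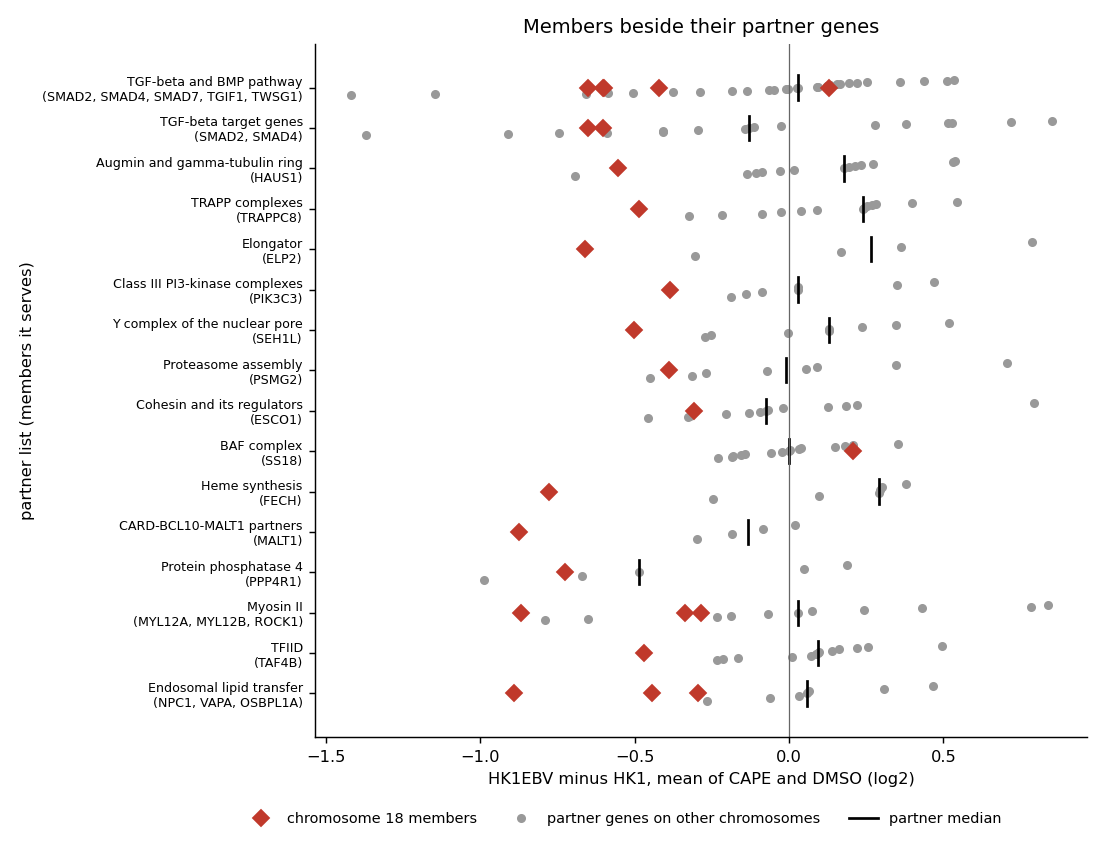
HK1EBV minus HK1, mean of both treatments (log2, x axis), for members (red diamonds) and the partner genes of each list on other chromosomes (grey points, 1 per gene, with the list median as a bar). Partner medians lie from -0.49 for protein phosphatase 4 to 0.29 for heme synthesis, and most diamonds lie left of their bar, SS18 and TWSG1 being on the right.

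The change with CAPE was tested on all 4 arrays with the cell line as a term, on 58 members. None (0) passed (limma with Benjamini-Hochberg adjustment over all genes), as 1 gene of 15194 did (0.00658%), and 16 members had an unadjusted p under 0.05, 6 higher and 10 lower (27.6%, against 19.5% of all genes). The lowest limma adjusted p of a member was 0.0672. The error here is the gap between the line differences of both treatments, and the choice of members favoured a small gap. The shares of members past a threshold are thus not independent of that choice. The median change was -0.01 in HK1EBV and -0.13 in HK1, against -0.0032 and 0.02 over all genes. With CAPE 16 members read higher in both lines and 27 lower in both. These counts were not taken over all genes, and nothing is read from them. By line, 27 of 58 members read higher with CAPE in HK1EBV and 20 in HK1, against 7316 and 8067 of the 15194 genes tested. Opposite ways went 14 members, a smaller share than the 5417 of the 15194 genes tested. WDR7 had the same value on both HK1 arrays. Without the 57 genes of zero residual, 6 members passed (10.3%, against 8.21% of all genes). NPC1, TGIF1, ABHD3 and PTPRM were higher, as 4.07% of all genes were, and SEH1L and ROCK1 lower, as 4.14% were.

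SEH1L read lower with CAPE by 0.94 in HK1EBV and 0.89 in HK1 (mean -0.91 ± 0.11, moderated SE, n = 2 lines, limma adjusted p = 0.0672, range over alternatives 0.00254 to 0.516, past the threshold in 5 of 9). It was the 1 member at least 1.5-fold lower with CAPE in both lines (1.56% of all genes were), and 0 members were so much higher in both (1.35%). ROCK1 differed by -0.57 in HK1EBV and -0.75 in HK1 (limma adjusted p = 0.0903, range 0.0137 to 0.755). ME2 differed by -0.43 in both lines, and PTPN2 by -0.41 and -0.35.

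NPC1 was higher with CAPE by 0.92 in HK1EBV and 0.39 in HK1 (limma adjusted p = 0.136, range 0.0257 to 0.775). Its level in HK1EBV with CAPE, 5.26, thus came close to that of HK1 with DMSO, 5.50. TGIF1 was higher by 0.69 in HK1EBV and 0.50 in HK1 (limma adjusted p = 0.103, range 0.0209 to 0.579). ABHD3 was higher by 0.57 and 0.42, and PTPRM by 0.51 and 0.43 (limma adjusted p = 0.122 and 0.123, ranges 0.0439 to 0.618 and 0.0498 to 0.516).

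Counted by size and without a test, 2 members were at least 1.5-fold higher and 2 lower with CAPE in HK1EBV (3.9 and 3.63% of all genes), and 0 and 3 in HK1 (3.38 and 3.79%). SMCHD1 differed with CAPE by -0.11 in HK1EBV and by -0.76 in HK1. SMAD4 was higher by 0.53 in HK1EBV and 0.23 in HK1, while SMAD2 differed by -0.13 and -0.34. Across members, Pearson correlation of the change in HK1EBV with that in HK1 was r = 0.688 and Spearman correlation was 0.640, against 0.549 and 0.442 over all genes tested. The changes in the lines share no array, and genes are not independent replicates.

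**Figure D5:**
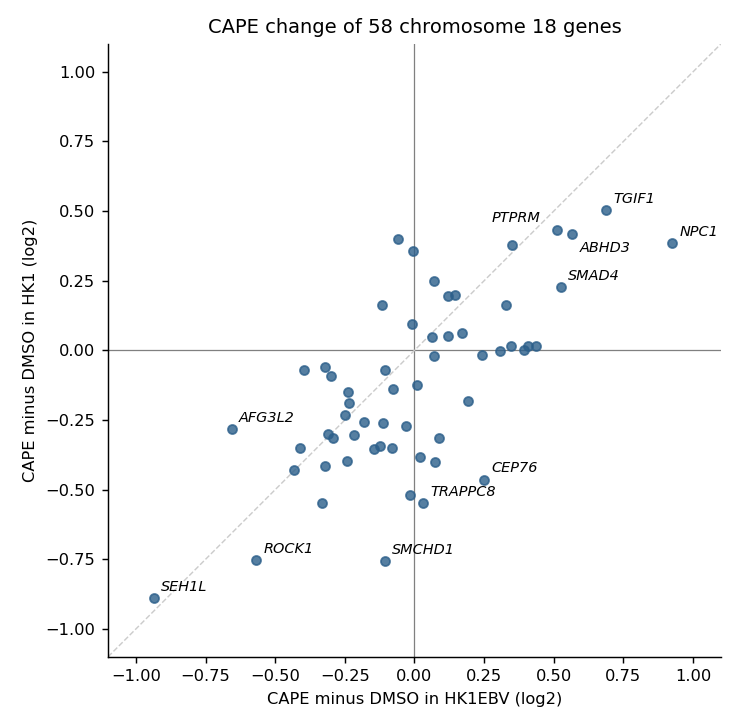
CAPE minus DMSO (log2) of the 58 members in HK1EBV (x axis) and in HK1 (y axis), each point 1 gene from 2 arrays per line, with equal changes on the dashed line. SEH1L is lowest at -0.94 and -0.89, TGIF1 and NPC1 are among the highest, and CEP76 lies at 0.25 in HK1EBV and -0.46 in HK1.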

How the data were processed

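RNA of 2 cell lines with 2 treatments was measured on 4 arrays, 1 per group, from 250 ng of total RNA per the labels' protocols. The deposited values are log2 values made by RMA, per the submitters' processing notes. RMA corrects background, brings the arrays to one distribution and summarises probes and tends to compress differences at low levels. Its version, any shift of the scale and the genome build were not given in the sources used here.

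Of 25800 probe sets, 18612 had 1 gene symbol, 954 several and 6234 none in the platform annotation, and 18583 were matched to RefSeq (GRCh38.p14) for chromosomes and gene order. The brightest probe set stood for a gene. Genes at or above the 25th percentile of all probe sets (0.997) were tested. limma 3.58.1 in R 4.3.3 was fitted on all 4 arrays with terms for line and treatment, which leaves 1 residual degree of freedom, two-sided, with Benjamini-Hochberg adjustment over 15194 genes. On data simulated with 200 genes changed by 1 log2 unit, 194 to 200 were recovered for the line difference with 7 to 65 false calls, and 192 to 200 for CAPE with 9 to 71. At 2 log2 units all 200 were recovered, with 6 to 77 and 3 to 93 false calls. False calls can thus exceed the nominal rate. The simulated noise was drawn from the residuals without the 57 genes of zero residual, and no such genes were simulated. These recoveries therefore do not carry over to the fit reported, which kept those genes.

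Members and lists were chosen with earlier results of these data known. Named were the 10 lowest and 4 highest members by mean line difference, the 4 with the widest gap between treatments, the 4 highest and 4 lowest in CAPE change by the smaller of the changes in both lines, where these had the same sign, 14 preset members, the 3 lowest and 3 highest other genes of the chromosome, and up to 3 genes per partner list. Other members are given by their differences. Alternatives changed the filter, scaling, probe set rule, fold threshold, variance prior and block, or left out genes of zero residual. Role groups were assigned after the values were seen.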

Additional observations from a re-analysis of the deposited data

Results flagged for a closer look

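Of the 14 members whose CAPE change had opposite signs in the lines, CEP76 was the 1 whose changes lay at least 1.5-fold apart, with 0.25 in HK1EBV and -0.46 in HK1, a difference of 0.72. FAM210A, a gene of the chromosome outside the list, differed by -0.35 in HK1EBV and 0.30 in HK1, a difference of -0.65. Outside the list only the named genes were looked at, and other genes of the chromosome had wider gaps. With 1 array per group these differences were not tested.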

How the results depend on the processing

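No paired analysis by replicate number was possible because the labels carry none, although the fit compares treatments within each line and lines within each treatment. With 1 array in each group no array could be left out. Of 56 recomputed counts and medians, 36 kept their direction and stayed near the value reported, and none (0) reversed. The fold threshold set the counts of members lower in HK1EBV. At a log2 difference of 0.32 or more they were 42 with CAPE, 49 with DMSO and 38 with both, and at 2-fold 5, 9 and 5. The other genes of chromosome 18 lower with both were 54 at that smaller difference and 2 at 2-fold. Filters, scaling and the probe set rule left these counts within 1.5 times of those reported. The mean line differences of the named members kept their sign in all 140 recomputed values. Only scaling put this to the proof, since a filter leaves these values as they are and the probe set rule could move only TGIF1.

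Counts by limma depended on how the variance was estimated from 1 residual degree of freedom. Members past the threshold for CAPE, 0 as reported, were 3 with the filter at the 50th percentile, 4 with arrays shifted to one median, 3 with quantile normalization, 1 with a robust prior and 6 without genes of zero residual. Partner genes past it for the line difference, 8 as reported, were 26, 28, 24, 18 and 31 under the same settings, 0 with no filter and 0 with no block. Of 250 recomputed CAPE changes of named members 17 passed and none (0) changed sign. Their sign could change only with the scaling or the probe set rule, because filter, variance prior, block and zero residual settings leave the estimates as they are. Values near the bottom of the scale, as for PSTPIP2, MYL12A and MYO5B in HK1EBV, limit what size of difference can show.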

Other observations

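The low genes of chromosome 18 outside the list differed in their response to CAPE. DSG3 was higher with CAPE by 0.67 in HK1EBV and 0.82 in HK1. Its HK1EBV level with CAPE, 5.44, still lay below its HK1 level with DMSO, 5.75. FHOD3 differed by -0.50 and -0.56, and FAM210A by -0.35 in HK1EBV and 0.30 in HK1. The genes of messenger RNA cap formation that work with RNMT included RNGTT, the capping enzyme, which differed between the lines by -0.23 with CAPE and -0.41 with DMSO. RAMAC, the activator of RNMT, was higher in HK1EBV by 0.45 and 0.43. Neither passed (limma adjusted p = 0.195 and 0.107, ranges over alternatives 0.138 to 0.517 and 0.0522 to 0.265).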
